A study of Rattus norvegicus with 3 samples.

Results

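The genes described here encode amino acid carriers of 6 solute carrier families, SLC1, SLC3, SLC7, SLC36, SLC38 and SLC43, in cultured rat heart cells kept in 3 media. A probe set was a member when the platform annotation gave it 1 symbol starting with a family name and a number, and the cystine carrier gene Slc7a11 was left out. This gave 45 probe sets of 36 genes, out of 20832 probe sets of 14218 genes with a single symbol. One of the 36, Slc7a6os, lies opposite Slc7a6 and is not a carrier gene, so 35 are transporters. The cells were cardiomyocytes of fetal rats of the outbred Wistar strain, released with enzymes and kept on plates for 48 hours. They were then exposed for 24 hours to fresh culture medium (the control), to medium conditioned by skeletal myoblasts, the dividing precursors of skeletal muscle, or to medium conditioned by cardiac fibroblasts. Each condition was hybridised to 1 array, and the labels do not say how many animals or dishes stood behind it.

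Amino acids cross membranes mainly through carriers. Most SLC1 proteins take up glutamate and aspartate, and the other members of that family exchange neutral amino acids such as alanine, serine and glutamine. SLC7 holds the cationic carriers for arginine and lysine and the light chains, which work only when bound to an SLC3 heavy chain. SLC38 carriers import glutamine and other small neutral amino acids with sodium, SLC36 carriers move small amino acids with protons, and SLC43 carriers pass large neutral amino acids by facilitated diffusion. When amino acids run short, uncharged transfer RNA activates the kinase GCN2, translation of the transcription factor ATF4 rises, and ATF4 binds composite C/EBP-ATF elements in genes of amino acid uptake and synthesis. Stress of the endoplasmic reticulum and oxidative stress reach the same factor through other kinases.

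The deposited values are read as centred on each probe set's median over the 3 arrays, so the middle array of each probe set is at 0 and the level of a gene is unknown. They are taken as log2, the scale RMA gives, since no source used here states the base. On that scale, which every fold below assumes, a difference of 1 between arrays is 2-fold. With 1 array per condition there is no replicate error and no test, and every difference below describes these arrays only. The sole measured yardstick was 45 probe sets of control transcripts meant to be added in equal amounts. Their largest difference in size was 0.66 between myoblast medium and fresh medium, 0.68 between fibroblast medium and fresh medium, and 1.02 between the conditioned media. Of the 36 genes, 7 had no value on any array and are read as 0, namely Slc7a2, Slc7a9, Slc7a10, Slc7a12, Slc7a13, Slc36a2 and Slc38a3. That is 19.4% of the members, against 11.4% of all genes. No filter on low values was used.

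The labelled cell type could not be checked by level, since centring removes it. Of 12 cardiomyocyte marker genes 11 were measured, but a centred value does not show that a gene was expressed. The arrays differed in markers of several cell types. Endothelial markers had a mean centred value of 0.72 in fresh medium, 0.00 in myoblast medium and -1.79 in fibroblast medium over 10 genes. Macrophage markers were at -0.09, -0.40 and 2.26 over 14 genes, cardiomyocyte markers at 0.08, 0.05 and -0.71 over 11, and smooth muscle and pericyte markers at -0.68, -0.07 and 0.32 over 9. No measured marker of these 4 lists was at 0 on all arrays. The same held for the 8 skeletal muscle and the 4 neural or Schwann markers, and only 11.4% of all genes were at 0. In bulk RNA, fewer cells of a type and less RNA per cell cannot be told apart.

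**Figure D1:**
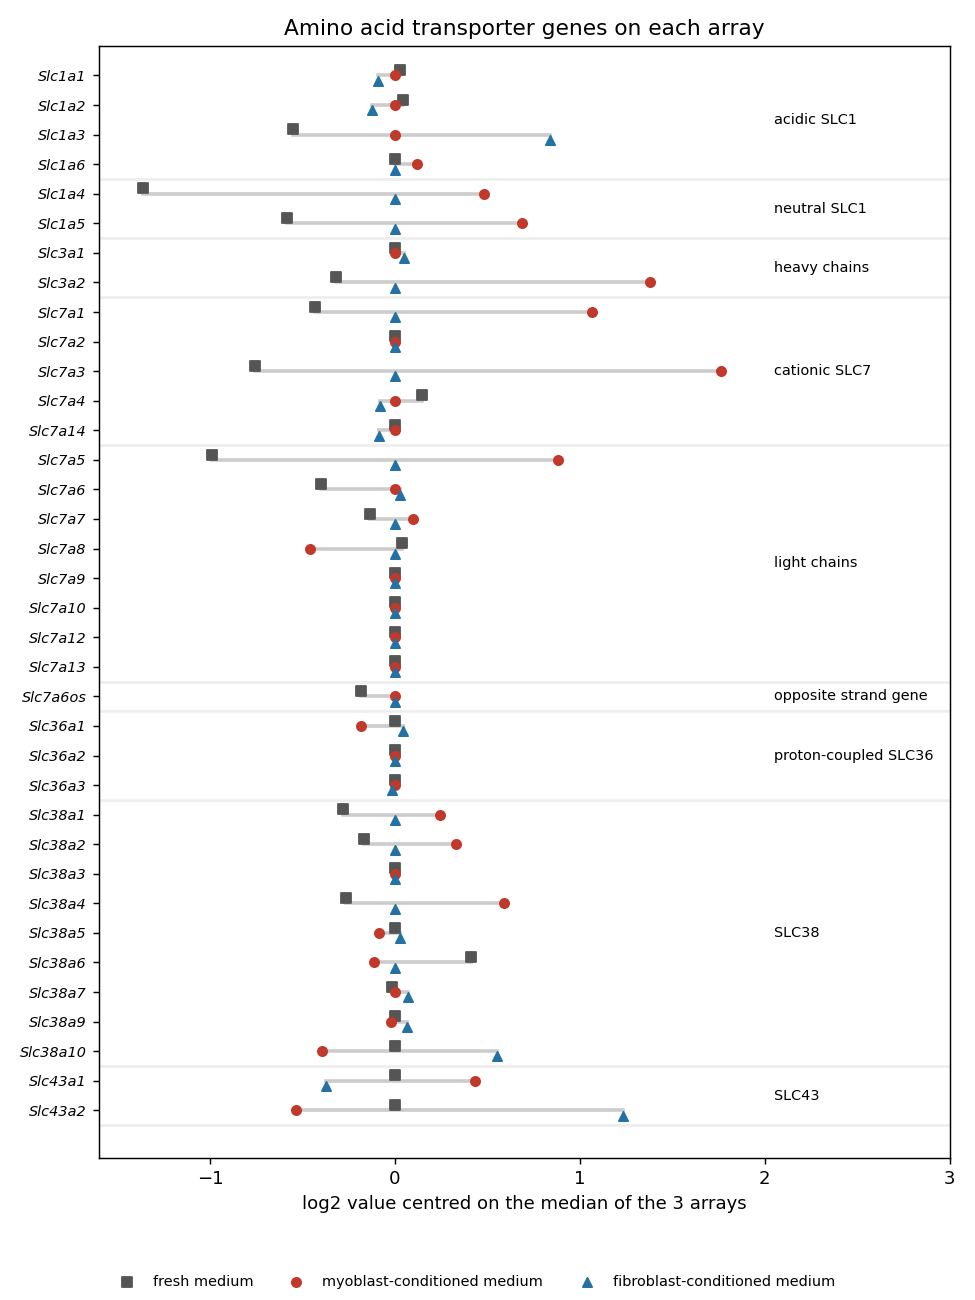
Centred log2 value of each of the 36 genes (vertical axis, grouped by role) on the fresh medium (square), myoblast medium (circle) and fibroblast medium (triangle) array; each point is 1 array, the mean of the gene's probe sets, and the grey line spans the 3 values. Slc7a3, Slc3a2, Slc7a1, Slc7a5, Slc1a5 and Slc1a4 have the square leftmost and the circle rightmost, at least 2-fold apart. Slc43a2 and Slc1a3 have the triangle rightmost.

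The first comparison asks which carrier genes differed between cells given myoblast-conditioned medium and cells given fresh medium. Some carriers of cationic, large neutral and small neutral amino acids were higher in myoblast medium, and most members were under 2-fold. Of the 36 genes, 6 were at least 2-fold higher and 0 were 2-fold lower, or 16.7% and 0%. Over all 14218 genes 1.35% were at least 2-fold higher and 0.844% were 2-fold lower. The 6 were Slc7a3, Slc7a5, Slc1a4, Slc3a2, Slc7a1 and Slc1a5. The median over all 36 was 0.00, the same as over all genes, and the 6 genes belong to SLC1, SLC3 and SLC7. At 3-fold, 4 of the 36 were higher and 0 lower, against 0.38% and 0.148% of all genes. At 1.5-fold, 7 were higher and 0 lower, against 3.77% and 2.86%.

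Cationic carriers held the largest difference. Slc7a3 encodes CAT-3, a sodium-independent arginine and lysine carrier. Its centred value was -0.76 in fresh medium, 1.76 in myoblast medium and 0.00 in fibroblast medium. Myoblast medium was therefore higher by 2.52, or 5.75-fold, which placed the gene at rank 8 of 14218 from the highest. Slc7a1, which encodes the widely expressed arginine carrier CAT-1, was measured by 3 probe sets. Their mean was -0.43 in fresh medium, 1.06 in myoblast medium and 0.00 in fibroblast medium, a difference of 1.496 (2.82-fold) between myoblast and fresh medium. The probe sets differed in size but not in direction, at 2.07, 1.87 and 0.54. Slc7a2, the gene of an inducible arginine carrier, had no value on any array. Slc7a4 and Slc7a14, related genes placed in the same subfamily, were at -0.14 and 0.00 in this comparison.

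Among the heavy and light chains, a single pair stood out. Slc3a2 encodes the CD98 heavy chain, which carries light chains to the plasma membrane. It had values of -0.32 in fresh medium, 1.38 in myoblast medium and 0.00 in fibroblast medium, so that myoblast medium was higher by 1.69 (3.24-fold). Slc7a5 encodes LAT1, the light chain that exchanges leucine and other large neutral amino acids for glutamine. Its values were -0.99, 0.88 and 0.00 in the same order of media, a difference of 1.87 (3.66-fold). Both partners of this carrier were thus lowest in fresh medium and highest in myoblast medium. The other light chains that pair with CD98 differed less and in both directions. Slc7a6, which encodes the arginine and glutamine exchanger y+LAT2, was higher by 0.40 in myoblast medium, and its close relative Slc7a7 by 0.23. Slc7a8, which encodes LAT2, a second large neutral amino acid exchanger, was at -0.50, the lowest light chain. Slc3a1 encodes the heavy chain rBAT of kidney and intestine and was at 0.00. Slc7a9, its partner in cystine reabsorption, had no value on any array, and neither had Slc7a10, Slc7a12 and Slc7a13.

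The neutral exchangers of SLC1 were both higher, and the glutamate carriers of the same family were under 2-fold. Slc1a4 encodes ASCT1, an exchanger of alanine, serine and cysteine. Its values of -1.36 in fresh medium, 0.48 in myoblast medium and 0.00 in fibroblast medium gave a difference of 1.85 (3.59-fold) between myoblast and fresh medium. Fresh medium stood apart here, below both conditioned media. Slc1a5, which encodes the glutamine exchanger ASCT2, was at -0.59 in fresh medium, 0.68 in myoblast medium and 0.00 in fibroblast medium. Its difference was 1.27 (2.41-fold). Slc1a3, which encodes the glutamate carrier EAAT1, was higher by 0.55, below the largest control transcript difference. The other glutamate carrier genes were near 0, with Slc1a1 at -0.03, Slc1a2 at -0.04 and Slc1a6 at 0.12.

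None of the 9 measured SLC38 genes reached 2-fold in either direction. The 3 sodium-coupled importers of the system A type were all higher in myoblast medium, by 0.85 for Slc38a4, 0.52 for Slc38a1 and 0.49 for Slc38a2. Slc38a4 was at -0.26 in fresh medium, 0.59 in myoblast medium and 0.00 in fibroblast medium. Outside the 6 it alone exceeded 0.66, the largest control transcript difference in size. With the 6 it made 19.4% of the members, against 5.47% of all genes. The control transcripts ran from -0.01 to 0.66, so lower genes such as Slc38a6, Slc38a10 and Slc43a2 lay under that range. Slc38a2 encodes SNAT2, the classical starvation-induced glutamine importer, and its values were -0.17, 0.33 and 0.00. Slc38a6 was at -0.52 and Slc38a10 at -0.40, in the opposite direction. Slc38a7 and Slc38a9, which encode lysosomal carriers, were at 0.02 and -0.02; SLC38A9 also signals lysosomal arginine to mTORC1. Among the SLC36 genes, Slc36a1 was at -0.19, and Slc36a3 was at 0.00. The SLC43 genes differed in opposite directions, with Slc43a1, which encodes LAT3, at 0.43 and Slc43a2, which encodes LAT4, at -0.53. Slc7a6os was at 0.19.

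A list of 7 carrier genes that are known ATF4 or amino acid response targets held all 6 genes past 2-fold. The list (Slc1a4, Slc1a5, Slc3a2, Slc7a1, Slc7a3, Slc7a5 and Slc38a2) was drawn up with earlier results of these data known, so its count is a description and no independent evidence. All 7 were above 0 in myoblast medium against fresh medium, with a median of 1.69 and a range from 0.49 to 2.52. Of the other 29 members, 0 were at least 2-fold higher or lower, 9 were above 0, 10 below 0 and 10 at 0, with a median of 0.00. Those 29 ranged from -0.53 for Slc43a2 to 0.85 for Slc38a4. When the arrays were centred on the control transcripts, which moved all genes by -0.23, all 7 stayed above 0. With the lowest of the 7 at 0.49, that shift was too small to change a sign among them. Slc1a6, Slc7a6os and Slc38a7 changed sign under that centring.

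**Figure D2:**
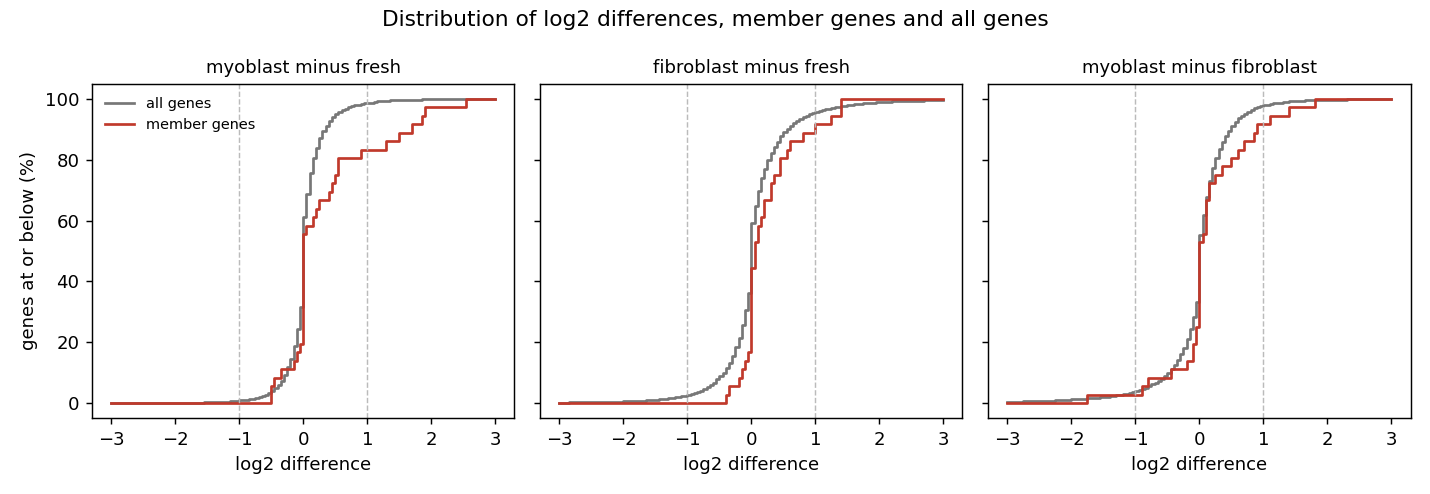
Percentage of genes at or below a given log2 difference (horizontal axis, shown from -3 to 3) for the 36 member genes (red) and all 14218 genes (grey) in the 3 comparisons; dashed lines mark 2-fold. In myoblast minus fresh the red line runs below the grey one to the right of 0 up to the largest member, Slc7a3 at 2.52, with 6 of 36 genes past 2-fold, and both medians are 0.00.

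Genes of this list are known for C/EBP-ATF composite elements, so promoters of the members were searched for TGATGNAAN on both strands. No other motif was searched. RefSeq promoter windows of assembly GRCr8, from 250 bases before to 50 bases after each start site, were found for 28 of the 36 genes, in 32 windows. Slc1a1, Slc1a5, Slc7a2, Slc7a3, Slc7a4, Slc7a13, Slc38a3 and Slc38a10 had none. Of the 32 windows 3 held a match, or 9.38%, against 3.97% of all 33469 windows and 2.22% of the 13193 windows of genes on the array. They belong to Slc1a4, Slc38a1 and Slc7a1, and are shown because these are the only member windows with a match. All were higher in myoblast than in fresh medium, Slc38a1 by only 0.52, under the largest control transcript difference of 0.66. A match is a string of letters, not a bound site, and 2 of the 6 windows of the 7 listed genes held one. Each window reads in the direction of the gene, with the match in capitals.
Slc1a4, chr14:98761513-98761812, minus strand, match on the opposite strand from position -236: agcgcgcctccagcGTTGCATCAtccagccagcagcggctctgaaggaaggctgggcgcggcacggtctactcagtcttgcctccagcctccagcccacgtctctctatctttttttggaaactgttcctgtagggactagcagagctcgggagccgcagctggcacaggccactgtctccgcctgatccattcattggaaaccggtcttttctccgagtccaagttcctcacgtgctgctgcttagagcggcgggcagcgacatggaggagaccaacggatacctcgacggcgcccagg
Slc7a1, chr12:11664238-11664537, plus strand, match from position -30: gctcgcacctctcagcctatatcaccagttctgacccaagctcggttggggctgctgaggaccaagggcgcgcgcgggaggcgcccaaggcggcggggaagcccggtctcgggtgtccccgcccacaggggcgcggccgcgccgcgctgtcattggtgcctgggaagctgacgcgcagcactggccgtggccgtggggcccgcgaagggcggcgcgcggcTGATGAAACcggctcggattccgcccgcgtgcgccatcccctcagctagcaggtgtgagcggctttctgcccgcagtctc
Slc38a1, chr7:129681352-129681651, minus strand, match from position -142: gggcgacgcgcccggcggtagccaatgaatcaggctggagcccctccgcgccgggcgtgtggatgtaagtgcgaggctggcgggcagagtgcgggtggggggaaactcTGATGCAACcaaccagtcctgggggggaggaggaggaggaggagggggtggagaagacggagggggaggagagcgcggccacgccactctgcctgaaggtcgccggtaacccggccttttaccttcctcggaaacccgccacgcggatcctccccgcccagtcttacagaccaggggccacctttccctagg

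Between fibroblast-conditioned and fresh medium, the second comparison, other carriers led. Of the 36 genes, 3 were at least 2-fold higher (8.33%) and 0 were 2-fold lower. Over all genes, 4.26% were at least 2-fold higher and 2.6% were 2-fold lower. The 3 were Slc1a3, Slc1a4 and Slc43a2, of which 1, Slc1a4, was also past 2-fold in myoblast medium against fresh medium. Both comparisons share the fresh medium array. At 1.5-fold, 6 of the 36 were higher and 0 lower, against 9.09% and 6.97% of all genes, and at 3-fold 0 were higher or lower, against 1.84% and 0.992%. The median over the 36 genes was 0.05, against 0.00 over all genes.

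Slc1a3, the EAAT1 glutamate carrier gene, had mean values of -0.55 in fresh medium, 0.00 in myoblast medium and 0.84 in fibroblast medium. Fibroblast medium was higher than fresh medium by 1.39 (2.62-fold), and its 3 probe sets gave 2.10, 1.70 and 0.38. Slc43a2, the LAT4 gene, was at 0.00 in fresh medium, -0.53 in myoblast medium and 1.23 in fibroblast medium. Both of its probe sets were higher in fibroblast medium than in fresh medium, by 1.64 and 0.83. Slc1a4 was higher by 1.36 (2.57-fold) from its single probe set. These differences stood beside higher macrophage markers in the same array, where 10 of 14 were at least 2-fold higher and 0 were 2-fold lower, with a median of 1.63. The median of 10 endothelial markers was -2.72, and 8 of them were at least 2-fold lower. The part of either cell type in the carrier differences was not tested.

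Slc7a5 lay just under the threshold in fibroblast medium, at 0.99, and Slc7a3 was at 0.76. Together with the 3 genes past 2-fold they were the 5 members beyond the control transcripts, 13.9% of the 36, against 12.8% of all genes. The remaining genes of the amino acid response list were at 0.59 (Slc1a5), 0.43 (Slc7a1), 0.32 (Slc3a2) and 0.17 (Slc38a2). All 7 were above 0, with a median of 0.59. Centring on the control transcripts moved all genes by -0.03, too little to change a sign among the 7. Among the others, Slc38a10 was at 0.55, Slc7a6 at 0.43 and Slc38a1 at 0.28. On the lower side, Slc38a6 was at -0.41, Slc43a1 at -0.37, Slc7a4 at -0.23 and Slc1a2 at -0.17.

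The third comparison was between both conditioned media, and carriers lay on either side of it. Of the 36 genes, 3 were at least 2-fold higher in myoblast medium (8.33%) and 1 was 2-fold lower (2.78%). The shares over all genes were 2.12% and 3.94%. At 1.5-fold, 7 were higher and 3 lower, against 6.65% and 8.34%, and at 3-fold 1 was higher and 1 lower, against 0.591% and 1.79%. The higher genes were Slc7a3 by 1.76 (3.40-fold), Slc3a2 by 1.38 (2.60-fold) and Slc7a1 by 1.06 (2.09-fold). Slc7a1 was at 0.86, under 2-fold, when the arrays were centred on the control transcripts. Slc7a5 was at 0.88, Slc1a5 at 0.68, Slc1a4 at 0.48 and Slc38a2 at 0.33, so that all 7 listed genes were above 0 (median 0.88). The control transcript centring moved all genes by -0.20, too little to change a sign among the 7. The lower gene was Slc43a2 at -1.76 (3.40-fold), with probe sets at -2.54 and -0.99. Slc38a10 followed at -0.95 and Slc1a3 at -0.84, and under the control transcript centring both were past 2-fold lower, at -1.15 and -1.04. Slc43a1 was higher in myoblast medium by 0.80, opposite to its relative Slc43a2.

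The ordering of the 3 arrays was available for the 24 members whose 3 values were all different. In 10 of the 24 (41.7%) myoblast medium was highest and fresh medium lowest, an order found in 11.8% of 10013 such genes. They were Slc1a4, Slc1a5, Slc3a2, Slc7a1, Slc7a3, Slc7a5, Slc7a7, Slc38a1, Slc38a2 and Slc38a4. For Slc7a7 the difference between the conditioned media was 0.10 and changed sign when the arrays were centred on the control transcripts. Fibroblast medium was highest and myoblast medium lowest in 5 genes, Slc36a1, Slc38a5, Slc38a9, Slc38a10 and Slc43a2, and the span was 0.23 for Slc36a1, 0.12 for Slc38a5 and 0.09 for Slc38a9. That order was found in 18.3% of all such genes. Fresh medium was highest in 5 of the 36 members, against 25.1% of all genes, with Slc38a6 at 0.41 the farthest from the other arrays.

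**Figure D3:**
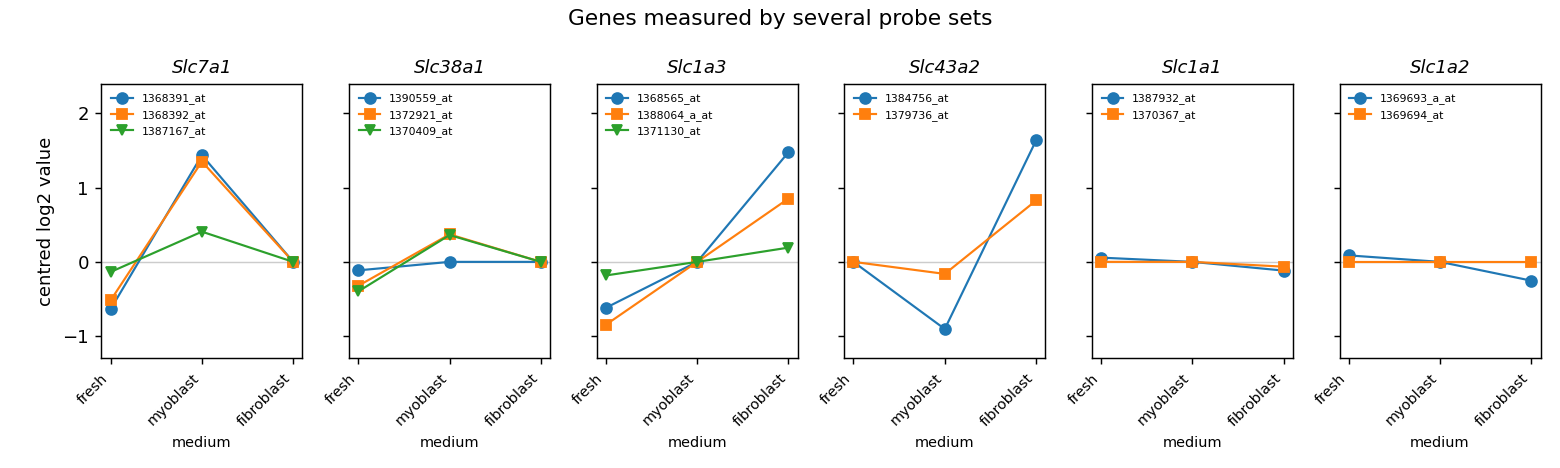
Centred log2 value on each array (horizontal axis) for the 6 genes with several probe sets; each line joins the values of 1 probe set. The 3 probe sets of Slc7a1 peak in myoblast medium and those of Slc1a3 in fibroblast medium, with one flatter probe set in each gene, at 0.54 and 0.38 in the respective comparison with fresh medium.

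Probe sets of the same gene agreed in direction but not in size. Of the 36 genes 6 had several probe sets, and in none of the 6 did probe sets have opposite signs in any of the 3 comparisons. The smallest Slc7a1 probe set difference between myoblast and fresh medium was 0.54 and the largest 2.07, so the gene's 2-fold call rests on 2 of its 3 probe sets. Slc38a1 ranged from 0.11 to 0.76 in that comparison. Counted as probe sets, 7 of the 45 were at least 2-fold higher and 0 lower in myoblast than in fresh medium, against 1.33% and 0.874% of all 20832 probe sets. Between fibroblast and fresh medium 4 were higher and 0 lower, against 4.32% and 2.83%. In myoblast against fibroblast medium 4 were higher and 2 lower, against 2.3% and 4.06%. The other 30 genes, Slc7a3, Slc3a2, Slc7a5, Slc1a4 and Slc1a5 among them, rest on 1 probe set each.

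Among carriers outside these families, 26 genes for amino acid and peptide carriers were measured. Between myoblast and fresh medium 2 of the 26 were at least 2-fold higher (7.69%, against 1.35% of all genes) and 0 were lower, with a median of 0.00. They were Slc6a9, the glycine carrier gene GlyT1, at 1.11, and Slc6a6, the taurine carrier gene, at 1.10. In fibroblast medium against fresh medium, 2 of the 26 were at least 2-fold higher and 2 were lower (7.69% each, against 4.26% and 2.6% of all genes). Slc15a3, a lysosomal peptide and histidine carrier gene known from macrophages, was higher by 2.88, and Slc6a6 by 2.87. Slc16a10, the aromatic amino acid carrier gene TAT1, was at -1.19 and Slc6a17 at -1.17. In myoblast against fibroblast medium 1 of the 26 was at least 2-fold higher (3.85%) and 2 were lower (7.69%). Over all genes the shares were 2.12% and 3.94%. Slc6a9 was higher by 1.02, and Slc15a3 at -3.16 and Slc6a6 at -1.77 were lower. In that comparison 12 of 14 macrophage markers were at least 2-fold lower, against the same 3.94% of all genes. Their part in these values was not tested.

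Most genes listed for the amino acid response itself were higher in myoblast than in fresh medium. Of 14 regulators and response genes, 10 (71.4%) were at least 2-fold higher in myoblast medium than in fresh medium and 0 were lower. Their median was 1.41. Over all genes the shares were 1.35% and 0.844%. This list too was drawn up with earlier results of these data known, so its counts are a description and no independent evidence. Of the 14, 8 had the order of the 7 carriers, with myoblast medium highest and fresh medium lowest. That order was found in 11.8% of the 10013 genes with 3 different values. Atf4 was among the 8, at -0.59 in fresh medium, 1.003 in myoblast medium and 0.00 in fibroblast medium. Another 4, Atf3, Cebpb, Nupr1 and Ddit4, were highest in fibroblast medium, Ddit3 was lowest there, and Eif2ak4 was tied. The largest differences between myoblast and fresh medium were 3.82 for Trib3, 3.09 for Ddit3, 2.34 for Chac1 and 2.31 for Asns, which encodes asparagine synthetase. In fibroblast medium against fresh medium 3 of the 14 were at least 2-fold higher (21.4%, against 4.26% of all genes) and 0 were lower. They were Nupr1 at 2.004, Cebpb at 1.79 and Ddit4 at 1.23. Genes that relay amino acids to the growth kinase mTORC1 were mostly near 0. Of 30 measured, 1 (3.33%) was at least 2-fold higher in myoblast than in fresh medium, against 1.35% of all genes, and 0 were lower. It was the leucine sensor gene Sesn2 at 1.40, which the response list also holds. In fibroblast medium 1 of the 30 was at least 2-fold higher, Ddit4, against 4.26% of all genes, and 0 were lower. The median there was -0.05.

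**Figure D4:**
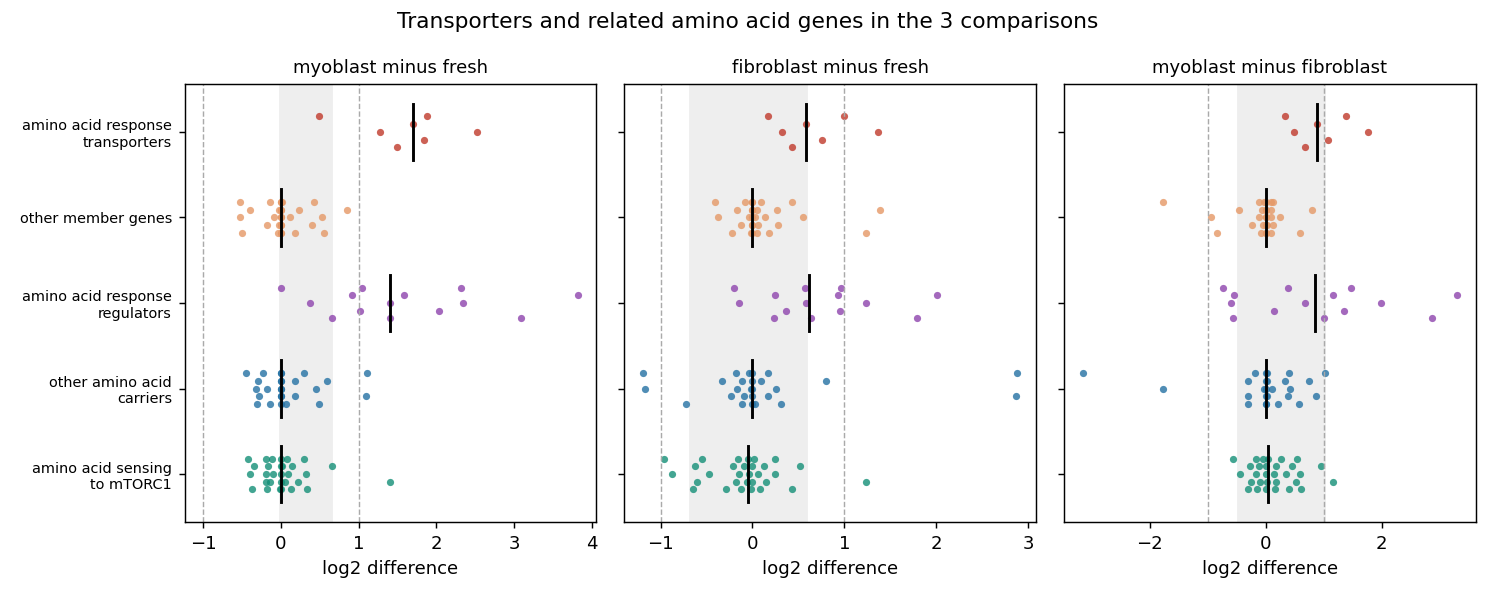
Log2 difference of each gene (point) in 5 gene lists for the 3 comparisons, with the list median as a black bar, 2-fold as dashed lines and the range of the 45 control transcript probe sets in grey; vertical offsets only separate points. The 7 amino acid response transporters have medians of 1.69, 0.59 and 0.88, whereas the other 29 members, the other carriers and the mTORC1 genes have medians from -0.05 to 0.03.

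Markers of other cells also differed between myoblast and fresh medium. Over all genes, 1.35% were at least 2-fold higher and 0.844% were 2-fold lower in that comparison. The median of the 10 endothelial markers was -0.88, with 4 of them past 2-fold in that direction and 0 in the other. Of 14 macrophage markers 1 was at least 2-fold higher and 0 lower, with a median of -0.40. Of 9 smooth muscle and pericyte markers 3 were at least 2-fold higher, Cnn1 at 3.02, Acta2 at 1.98 and Tagln at 1.33, and 1 was lower, with a median of 0.21. Of 6 epicardial mesothelial markers 2 were higher and 0 lower (median 0.15), and of 10 fibroblast markers 0 were higher and 2 lower (median -0.13). Erythroid markers had 1 of 6 past 2-fold, lower, and a median of -0.21, and neural or Schwann markers 0 of 4 and -0.01. Skeletal muscle markers had a median of -0.04, with 0 of 8 past 2-fold. Of 11 cardiomyocyte markers 1 was at least 2-fold higher in myoblast medium and 0 were lower, with a median of -0.16. In fibroblast medium against fresh medium their median was -0.97. There 5 of 11 were at least 2-fold lower and 0 higher, against 2.6% and 4.26% of all genes. The part of cell composition in the carrier differences was not tested.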

How the data were processed

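Expression was measured on 3 Affymetrix 3' arrays, 1 per medium. Per the submitters' processing notes the authors used RMA, with no software or settings named there. The deposited values, taken as log2 because RMA gives that scale, are read as centred on each probe set's median. In 17117 probe sets 2 arrays had a value, in 8002 1 array and in 5980 no array. Centring 3 different values leaves 1 blank, and why many probe sets have more is not stated. Blanks were read as 0, which is not a measured equality of the arrays. Of 31099 probe sets, 20832 had 1 symbol, 436 several and 9831 were unnamed; 20764 matched RefSeq by Entrez ID. Probe sets of a gene were averaged. Differences of at least 1 were counted as 2-fold. The number of arrays limits the precision, and no test was possible. Members and lists were chosen with earlier results of these data known. All member genes could be named, and other listed genes if past 2-fold, at most 4 per list and direction, largest first. Atf4, Atf3 and Eif2ak4 were named in addition for their order of arrays, and the last 2 were under 2-fold in every comparison. Counting was tested on simulated data: all 200 genes changed by 2 passed, and 5 of the other genes did. The simulated noise was set in advance and not taken from these arrays. It therefore checks the counting only and gives no error rate for the 2-fold calls. Of 41 carrier genes sought by role, 6 had no single-symbol probe set and were not analysed here. Alternatives were the median or widest-range probe set, leaving out probe sets ending in _x_at, _s_at or _a_at, only probe sets with values on 2 arrays, both centrings, other thresholds, and probe sets in place of genes. Python 3.11.15, NumPy 2.4.6, pandas 2.3.3 and Matplotlib 3.10.9 were used.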

Additional observations from a re-analysis of the deposited data

How the results depend on the processing

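No paired analysis was possible because each condition had 1 array. The counts of 6 genes at least 2-fold higher and 0 lower in myoblast against fresh medium stayed within 1.5 times under every alternative run. A median was taken to have moved when it shifted by more than the SD of the control transcripts. That of myoblast minus fresh medium was 0.32 when probe sets without values on 2 arrays were left out, which leaves 24 genes, and -0.23 with arrays centred on the control transcripts, the shift of all genes. At 1.5-fold, 6 genes were higher in fibroblast than in fresh medium, and 7 were higher and 3 lower in myoblast than in fibroblast medium. At 3-fold, 0 were higher in fibroblast than in fresh medium and 1 was higher in myoblast than in fibroblast medium. The 1 gene lower in myoblast than in fibroblast medium became 2 with the widest-range probe set, 2 with probe sets counted in place of genes, and 3 when centred on the control transcripts, which moved the median of all genes by -0.20. Under that centring the shares of all genes at least 2-fold higher and lower were 1.36% and 5.65% in this comparison and 0.71% and 1.62% for myoblast against fresh medium. Slc7a5 has a single probe set, ending in _a_at, so leaving such probe sets out removes it. Of the called differences of the 8 member genes past 2-fold in some comparison, 0 reversed. Genes of other lists were not recomputed. A reversal was not possible, because probe sets of the same gene never had opposite signs. The control transcript centring also shifted all genes by less than the 2-fold threshold. The absence of reversals is therefore no check of the calls. Using only members with a value on some array was chosen after the data were seen. It leaves out only genes at 0 on all arrays, so it could not move a 2-fold count. Centring the arrays on their median left the member counts and medians unchanged, because the values were already centred. Neither setting is therefore a check of the counts. Signal over background is unknown.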
